A study of Homo sapiens with 56 samples.

Results

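Interferon-stimulated genes are the genes that cells switch on when an interferon binds its receptor, and 49 of them were followed here in cultured cells of cutaneous T-cell lymphoma (CTCL). They were taken as a fixed list of gene symbols. For each, the probe sets of the Affymetrix array whose only gene symbol was that member were found, and of these the one brightest on average over the 56 arrays stood for the gene. This gave 48 members among 19775 genes with a probe set, and STAT2 was not analysed here. The 4 human cell lines were HuT102, MJ, MyLa (MY-LA in the labels) and HuT78, all long-established lines of malignant T cells. Cells were left untreated or received cobomarsen (MRG-106 in the labels), an oligonucleotide that binds and inhibits the microRNA miR-155. HuT102, MJ and MyLa were each harvested untreated and with cobomarsen at day 4 and at day 8, and HuT78 untreated and with cobomarsen at day 8, which made 14 groups of 4 arrays. The series set out to find genes whose expression responds to inhibition of miR-155. Each line stands for 1 tumour, and between the days all wells were diluted by 1 factor, set by the growth of the untreated ones. The groups compared held no other oligonucleotide, so an effect of any oligonucleotide and one of inhibiting miR-155 cannot be told apart. The labels used here do not give the dose behind each array or state whether the 4 arrays of a group were separate cultures. The p-values rest on the spread among arrays of the same group, pooled over the 14 groups, and this spread may therefore be technical.

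Type I interferons (alpha and beta) and type III interferons (lambda) act through receptors tied to the kinases JAK1 and TYK2, which activate transcription factors. The complex that forms, which includes STAT2 and IRF9, binds a short DNA motif, the interferon-stimulated response element. Interferon gamma acts through the kinases JAK1 and JAK2. The induced proteins sense foreign RNA, block viral translation and replication, tag proteins with the ubiquitin-like ISG15, present antigens and feed back on the pathway. HuT102 and MJ are known to carry the retrovirus HTLV-1.

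The 2 kinds of sequence on which the comparison rests are the target of the drug and the element that the members are known for. The mature microRNA that cobomarsen is directed against is shown first, with its seed (bases 2 to 8), the part that pairs with target transcripts, in capitals. It lies at chr21:25573983-25574006 on the plus strand (RefSeq, GRCh38.p14).
hsa-miR-155-5p: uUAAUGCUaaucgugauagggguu

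The core of the response element was searched as GAAANNGAAA on both strands (TTTCNNTTTC on the other) in the 300 bases from 250 before to 50 after each gene's start, from RefSeq's GRCh38.p14 table. Matches may overlap when the repeat runs on. Of the 48 members, 39 had an entry and 27 of these held at least 1 match, against 4.38% of all 27305 genes in the table and 3.57% of its 35116 promoters. A match is a run of letters and not a measured binding site. Examples are shown for some of the members with a match, with the match in capitals and 10 bases on each side. Not every member that led the results below held a match: OAS1, IFI35 and SP110 had none, and USP18 and TRIM22 had no entry. ISG15 is at chr1:1013380-1013409, OAS3 at chr12:112938321-112938350 and ISG20 at chr15:88638937-88638966, each on the plus strand. PLSCR1 is at chr3:146544667-146544696 on the minus strand. IFIT1 at chr10:89392510-89392539 and IFIT3 at chr10:89332425-89332454, both on the plus strand, carry the match on the opposite strand.
ISG15: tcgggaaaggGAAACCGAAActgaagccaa
OAS3: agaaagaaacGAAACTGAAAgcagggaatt
ISG20: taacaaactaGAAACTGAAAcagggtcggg
PLSCR1: cgggaaccggGAAAAGGAAAccgtgttgtg
IFIT1: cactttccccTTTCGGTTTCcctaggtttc
IFIT3: acagattctgTTTCAGTTTCccctcaagag
The 12 members with an entry and no match in this window were CMPK2, HERC6, IFI35, IRF1, IRF9, OAS1, PSMB9, RIGI, SAMD9L, SP110, UBE2L6 and XAF1. In the day 8 comparison of HuT102 described next, 25 of the 27 members with a match and 11 of these 12 were called lower, where 21.3% of all genes tested were, with median log2 changes of -1.23 and -1.08.

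Signals below are the authors' MAS5 values on a linear scale. Changes are differences of log2(signal + 16) with the standard error from limma, and a gene was called when its Benjamini-Hochberg adjusted p was under 0.05 over all genes tested. Signals of a group are given array by array or as mean ± SD (n = 4). A median signal over all arrays of 74.0 served as the background level. A gene was tested in a comparison only when its mean log2(signal + 16) over the arrays compared reached that of this level (6.49). The median signal of an array ranged from 56.4 to 91.7, and the correlation of log2 values between arrays of a group from 0.957 to 0.980. Of 10 T-cell markers, 8 lay above the background level in HuT102, MJ and HuT78 and 5 in MyLa, where CD4, CD5, CD7, CD28 and LCK did not. Of 5 B-cell markers 2 to 4 lay above it in a line, of 5 myeloid markers 1 to 3, of 5 plasmacytoid dendritic cell markers 0 to 3 and of 6 epithelial or fibroblast markers 1 to 2. Some of these moved with treatment. In HuT102 at day 8, TCF4 (mean 3019 untreated, 5634 with cobomarsen) and IL3RA (289 and 776) were called higher and GZMB (1379 and 231) lower, so that the summed signal of the plasmacytoid list was 4502 to 5085 untreated and 5930.3 to 7398 with cobomarsen. Its defining markers CLEC4C and LILRA4 had means of at most 24.0 in these groups. In MJ at day 8, MPO (217 and 765) and CSF1R (81.7 and 137) of the myeloid list and TCF4 (697 and 1693) were called higher. The myeloid sum was 392 to 526 untreated and 1067 to 1138 with cobomarsen, and CD14 had means of at most 17.1. In MyLa at day 8, 1 of the 6 epithelial or fibroblast markers (CDH1) was called higher, and their sum was 887 to 1015 untreated and 2229 to 2359 with cobomarsen. The T-cell sum was higher with cobomarsen in every array of HuT102 (27894 to 32608 untreated, 34011 to 35447 treated) and MJ (30728 to 32417 and 38382 to 41600.4) at day 8, and the B-cell sum in HuT102 (1565 to 1918 and 2180.1 to 2623). The T-cell markers of HuT102 did not move as 1 at day 8. Of 8 tested, CD2 (10466 and 14145) and CD3D (5914 and 7695) were called higher and CD247 (3852 and 2990) lower. In MJ 3 of 8 were called higher and 0 lower. The part of these genes in the results below was not tested. A change in signal cannot tell fewer cells of a kind from less RNA per cell.

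**Figure D1:**
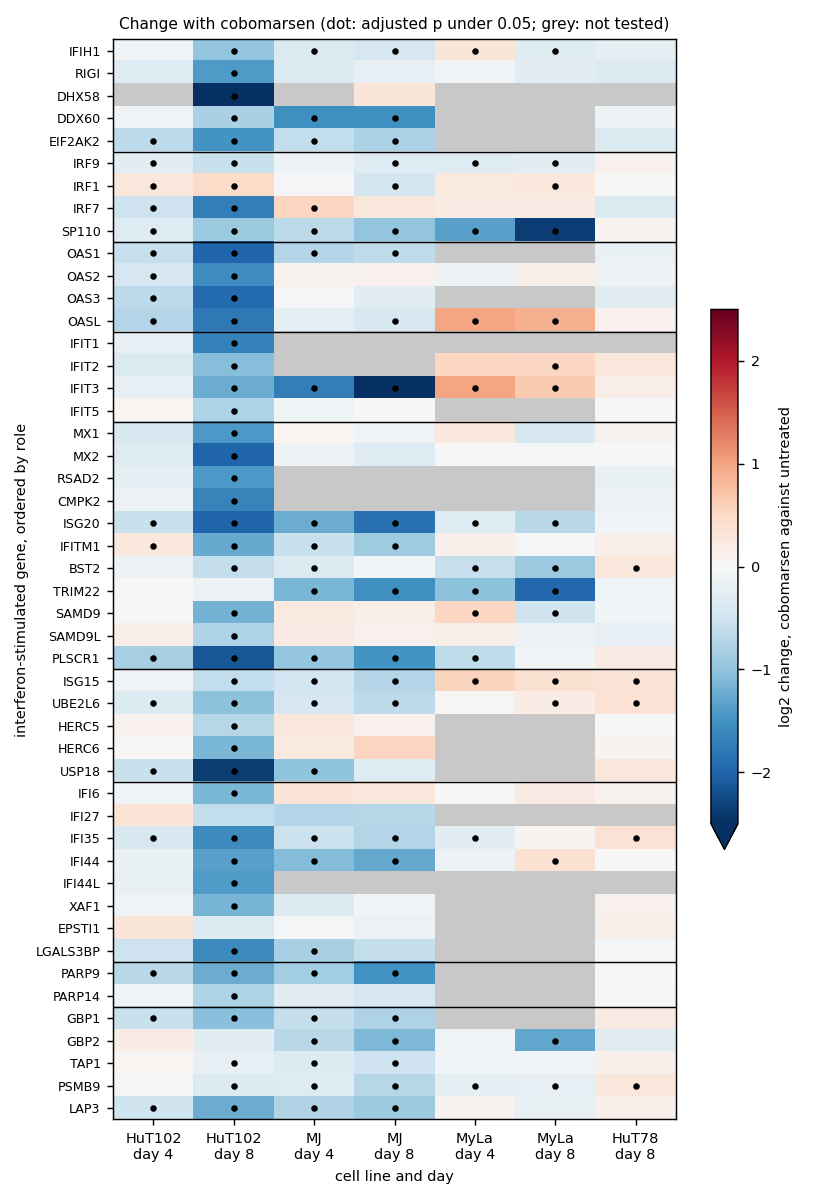
Log2 change of each of the 48 members (rows, ordered by role and parted by lines) with cobomarsen against untreated in the 7 comparisons (columns). Blue is lower, red higher, a dot marks an adjusted p under 0.05 in limma and grey a gene that was not tested; 43 members are blue with a dot in HuT102 at day 8, and none in HuT78.

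In HuT102 at day 8 nearly the whole list was lower with cobomarsen: 43 of 48 members were called lower and 1 higher, where 21.3% and 19.1% of all genes tested were. The median log2 change of the members was -1.20, that of all genes tested -0.00, and 31 members were at least 2-fold lower. The share of all genes tested that fell by as much was not computed. In 45 members (93.8%) the 4 arrays of each treatment did not overlap, as in 39.7% of all genes tested. DHX58 passed the filter on low values through its untreated arrays alone. The upper quartile of the arrays was 439 to 466 with cobomarsen and 419 to 429 untreated, and after quantile normalization the counts were again 43 and 1.

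The RNA sensors and the kinase PKR, which detect viral RNA and stop translation, were all 5 called lower. EIF2AK2, the gene of PKR, had signals of 9004, 8514, 8239 and 8910.0 in the untreated arrays and 3012, 3199, 2777 and 3226 with cobomarsen. The groups lay far apart, with a log2 change of -1.50 ± 0.21 (adjusted p = 6.21e-08). RIGI (RIG-I) changed by -1.41 ± 0.17, IFIH1 (MDA5) by -0.98 ± 0.10 and DDX60 by -0.81 ± 0.21. DHX58 (LGP2), a regulator of both sensors, was 429.6 ± 110.1 untreated and under the background level with cobomarsen, at 46.0 ± 13.6.

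The 2-5A synthetases make the oligoadenylates that activate the RNA-degrading enzyme RNase L, and all 4 fell. OAS1 measured 10582, 8257, 10098 and 10968 in untreated arrays and 2331, 2923, 2414 and 2411 with cobomarsen. Every treated array lay under every untreated one, and the log2 change was -1.98 ± 0.20 (adjusted p = 6.89e-12). OAS3 changed by -1.95 ± 0.24, OASL by -1.79 ± 0.14 and OAS2 by -1.55 ± 0.11.

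The IFIT proteins bind viral RNA that lacks the marks of host messenger RNA, and the 4 members also fell together. IFIT3 had 19224, 15114, 19381 and 20936 untreated and 7964, 7669.9, 8631 and 7262 with cobomarsen, a log2 change of -1.23 ± 0.12. IFIT1 changed by -1.68 ± 0.37, IFIT2 by -1.06 ± 0.21 and IFIT5 by -0.77 ± 0.16. The larger standard error of IFIT1 rests on the spread pooled over all 14 groups and not on these HuT102 arrays alone.

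Of the 11 other antiviral effectors 10 fell. PLSCR1, a phospholipid scramblase, went from 11650.1, 9001, 11592 and 12823 to 2411, 2993, 2541 and 2279, a log2 change of -2.13 ± 0.12 (adjusted p = 6.56e-21). MX1, a dynamin-like GTPase that traps viral nucleocapsids, went from 23704, 19081, 21413 and 24078 to 7746, 9275, 7282 and 8288, or -1.44 ± 0.19. Its paralogue MX2 changed by -2.01 ± 0.13, the exonuclease ISG20 by -1.99 ± 0.08, CMPK2, a nucleotide kinase, by -1.67 ± 0.31, and RSAD2 (viperin) by -1.44 ± 0.33. The membrane proteins IFITM1, which blocks virus entry, and BST2 (tetherin) changed by -1.26 ± 0.09 and -0.59 ± 0.08. TRIM22, a ubiquitin ligase, was the exception. It measured 12929.5, 10019, 12231 and 14034 untreated and 10884, 12694, 12228 and 9033 with cobomarsen, and these groups overlapped (-0.14 ± 0.09, adjusted p = 0.261).

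The ISG15 system comprises the modifier ISG15, its conjugating enzyme UBE2L6, the ligases HERC5 and HERC6, and USP18, which removes ISG15 and restrains the interferon receptor. All 5 fell, and USP18 changed most among members above background in both groups. Its signals were 3568, 2465, 3549.8 and 4093 untreated and 578, 659.7, 648 and 662 with cobomarsen, 5.18-fold lower (-2.37 ± 0.21, adjusted p = 9.19e-14). ISG15 itself moved less, from 35067, 29637, 33201 and 38391 to 19734, 24919, 23219 and 21016, or -0.62 ± 0.09. UBE2L6 changed by -1.02 ± 0.07.

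Among the transcription factors, IRF7, which drives interferon alpha genes, had 5834, 4896, 5958 and 6395 untreated and 1479, 1845, 1572 and 2106 with cobomarsen (-1.72 ± 0.15). IRF9 fell by a smaller amount (-0.55 ± 0.08), as did SP110, a nuclear body protein (-0.93 ± 0.06). IRF1, an activator induced mainly by interferon gamma, went the other way. It measured 2235, 2033, 1683 and 1710.0 untreated and 2531, 2995, 2325 and 2801 with cobomarsen, with no overlap (0.48 ± 0.10, adjusted p = 9.87e-05).

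The genes of guanylate binding and antigen processing changed unevenly. The transporter TAP1 changed by -0.20 ± 0.06 and the immunoproteasome subunit PSMB9 by -0.37 ± 0.07, both called. GBP1, a GTPase, changed by -1.05 ± 0.19 and the aminopeptidase LAP3 by -1.24 ± 0.08, while GBP2 was not called (-0.26 ± 0.19, adjusted p = 0.307). PARP9 and PARP14, of mono-ADP-ribosylation, changed by -1.23 ± 0.22 and -0.77 ± 0.22. Of the 8 IFI genes and others of less settled function 6 fell, among them IFI35 (-1.60 ± 0.10), IFI44L (-1.42 ± 0.26) and IFI6, a mitochondrial protein (-1.14 ± 0.17). EPSTI1 (-0.34 ± 0.16) and IFI27 (-0.61 ± 0.39) were not called. Of the 44 calls, those of HERC5, PARP14, TAP1 and XAF1 were lost under at least 1 other processing, TAP1 without untreated array 4.

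**Figure D2:**
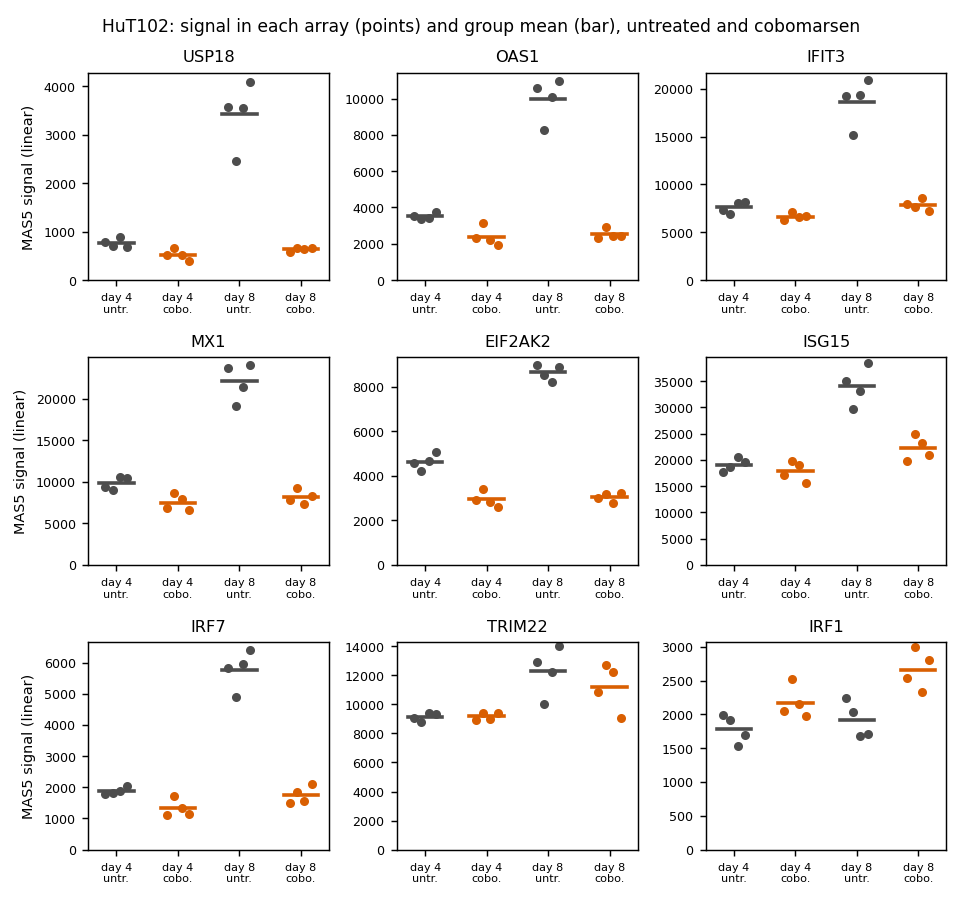
MAS5 signal in HuT102 for 9 members, 1 point per array and a bar at the mean of 4 arrays, untreated (grey) and with cobomarsen (orange) at day 4 and day 8; each axis starts at 0. The untreated arrays of day 8 stand above the other 3 groups for USP18, OAS1, IFIT3, MX1, EIF2AK2, ISG15 and IRF7, overlap the treated ones for TRIM22 and lie below the treated ones of day 8 for IRF1.

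At day 4 the change in HuT102 was smaller: 16 of the 47 members tested were called lower and 2 higher, where 13.1% and 10.1% of all genes tested were, and the median log2 change was -0.20 (-0.03 over all genes tested). All 4 of the 2-5A synthetases were called lower, while none of the 4 IFIT genes was called. PLSCR1 measured 4278, 4417, 4895 and 4613 untreated and 2538, 3039, 2596 and 2097 with cobomarsen (-0.83 ± 0.12, adjusted p = 2.76e-07). The treated arrays were all lower. OASL changed by -0.73 ± 0.14, ISG20 by -0.56 ± 0.08, LAP3 by -0.51 ± 0.08 and IRF7 by -0.51 ± 0.15. IFITM1 and IRF1 were called higher, by 0.27 ± 0.09 and 0.29 ± 0.10, with overlapping groups. Without cobomarsen array 2 or 3 the higher count was 0, and without any one of the untreated arrays 1. The calls of EIF2AK2, GBP1, IFITM1, IRF1, IRF9, OAS1, OAS3 and USP18 were each lost without at least 1 array, and that of PARP9 under another processing. With 8 arrays, each of cobomarsen arrays 1 to 4 and untreated arrays 1 to 4 decided at least 1 of these calls.

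The change of the treatment effect between the days was tested as an interaction. In HuT102, 30 of 48 members had a lower effect at day 8 than at day 4 and 0 a higher one, where 3.97% and 3.21% of all genes tested had. At an unadjusted p under 0.05 in limma the counts were 42 and 0, where 9.65% and 9.47% of all genes tested passed. The IFITM1 effect, called higher at day 4 and lower at day 8, differed by -1.53 ± 0.13 (adjusted p = 5.55e-12). USP18 differed by -1.82 ± 0.30, MX2 by -1.69 ± 0.19 and OAS1 by -1.40 ± 0.28. TRIM22 differed by -0.14 ± 0.13 and was not called (adjusted p = 0.651).

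The untreated cells themselves changed between the days. In untreated HuT102, 45 of 48 members were higher at day 8 than at day 4 and 0 lower, where 4.59% and 4.13% of all genes tested were. Their median log2 change was 1.16 (-0.00 over all genes tested), 34 were at least 2-fold higher, and IRF1, GBP1 and GBP2 were not called. The share of all genes tested that rose at least 2-fold was not computed. With cobomarsen the same interval held 13 members called higher and 1 lower of 47, against a background of 10% and 10.4%, with a median of 0.27. These 2 comparisons use different arrays. The untreated arrays of day 8 also enter the treatment comparison above, so the fall there and the rise here are not separate evidence.

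USP18 shows the pattern in single arrays. Untreated it measured 779, 713, 898 and 693 at day 4 and 3568, 2465, 3549.8 and 4093 at day 8, and with cobomarsen 517, 669.6, 525 and 395 and 578, 659.7, 648 and 662. The untreated arrays of day 8 stood far above the other 3 groups, with log2 changes between days of 2.11 ± 0.21 untreated and 0.29 ± 0.21 with cobomarsen. OAS1 changed between days by 1.49 ± 0.20 untreated and 0.09 ± 0.20 with cobomarsen, and IRF7 by 1.61 ± 0.15 and 0.40 ± 0.15. IFI27, a small mitochondrial protein, rose in both, by 2.67 ± 0.39 and 1.71 ± 0.39, and IFITM1 by 2.43 ± 0.09 and 0.90 ± 0.09. ISG20 was the only member called lower over time with cobomarsen (-0.41 ± 0.08), while it rose untreated. Without single arrays the 14 calls with cobomarsen fell to 7 (without day 4 array 1 or 4) or 8 (without day 4 array 3, day 8 array 2 or day 8 array 4).

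The members also moved together between arrays of 1 group. Among the untreated HuT102 arrays of day 8, array 2 was the lowest for 40 of the 48 members and array 4 the highest for 42. Of all genes tested, 27.9% were lowest in array 2 and 23.7% highest in array 4. The mean log2(signal + 16) over the 48 members was 12.31 in array 2 and 12.67 in array 4, and 11.22 to 11.41 with cobomarsen. The members are therefore not independent measurements. Leaving out each array in turn gave 42 to 44 members called lower at day 8.

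**Figure D3:**
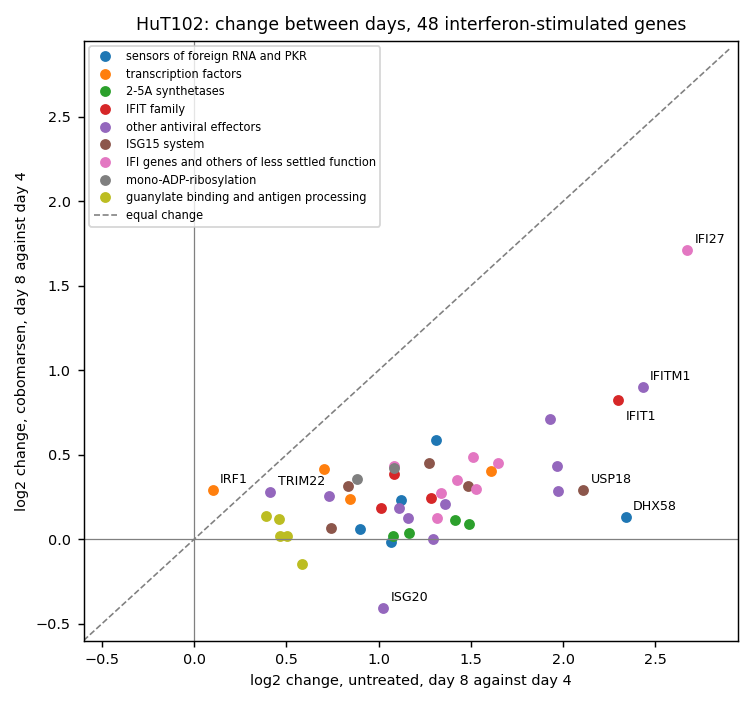
Log2 change from day 4 to day 8 in HuT102 for the 48 members, untreated on the horizontal axis and with cobomarsen on the vertical axis, coloured by role, with a dashed line at equal change. Every member but IRF1 lies below the dashed line, and IFI27 (2.67 untreated, 1.71 with cobomarsen) is the farthest right; DHX58 was under the background level with cobomarsen at both days.

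In MJ the list was lower in part, and already at day 4. At day 4, 23 of 42 members tested were called lower and 1 higher (background 14.3% and 13.2%), with a median of -0.37 (0.00 over all genes tested). At day 8 it was 23 of 43 and 0 (background 18.7% and 15.3%), with a median of -0.46 (-0.02 over all genes tested). At an unadjusted p under 0.05 in limma, 1 member was higher at day 8, where 18.8% of all genes tested were. The upper quartile of the day 8 arrays was 446 to 454 with cobomarsen and 425 to 437 untreated, and after quantile normalization 25 members were called lower and 0 higher. All 5 genes of guanylate binding and antigen processing were called lower at both days. By contrast MX1, MX2, OAS2, OAS3, IFI6, HERC5 and HERC6 were not called at either day.

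IFIT3 changed most. It measured 544, 542, 469.7 and 484 untreated and 129, 119, 191 and 134 with cobomarsen at day 4, and 923, 769, 712 and 688 and 118, 123, 132 and 114 at day 8. The groups did not overlap at either day, with log2 changes of -1.74 ± 0.12 and -2.51 ± 0.12 (adjusted p = 1.36e-23 at day 8).

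ISG20 went from 2274, 2637, 2215 and 1929.9 to 933, 938, 1018 and 886 at day 4 (-1.24 ± 0.08) and from 2159.6, 1946, 2099 and 2049 to 579, 542, 545 and 543 at day 8 (-1.87 ± 0.08). TRIM22, which was not called in HuT102, fell here from 7537, 7476, 7415 and 7376 to 2619, 2554, 2577 and 2522 at day 8 (-1.53 ± 0.09) and changed by -1.14 ± 0.09 at day 4. At both days every treated TRIM22 array lay under every untreated one. SP110 measured 1806, 1808, 1904 and 1679 untreated and 875, 910.0, 899 and 892 with cobomarsen at day 8 (adjusted p = 1.64e-18). DDX60 measured 699.9, 689, 500.4 and 714 and 268, 214, 141 and 247 (-1.54 ± 0.21).

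PARP9 changed by -1.51 ± 0.22, PLSCR1 by -1.49 ± 0.12, IFI44 by -1.28 ± 0.13 and ISG15 by -0.74 ± 0.09 at day 8. IRF1 was called lower at day 8 (-0.46 ± 0.10), the opposite of HuT102. IRF7 was the member called higher at day 4, with 839, 767, 618 and 515 untreated and 917, 927, 1160.4 and 941 with cobomarsen (0.53 ± 0.15, adjusted p = 0.00463), and it was not called at day 8 (0.28 ± 0.15). Without day 4 cobomarsen array 2 the higher count at day 4 was 2. USP18 was called lower at day 4 (adjusted p = 0.000169) from low signals, 167 ± 27.4 untreated and 78.9 ± 30.3 with cobomarsen, and was not called at day 8. The calls of EIF2AK2, GBP1 and OAS1 at both days, of IFIH1, LGALS3BP and PARP9 at day 4 and of OASL at day 8 were lost under at least 1 other processing. Among these, that of EIF2AK2 at day 4 needed untreated array 3 and cobomarsen array 4, and that of OASL at day 8 untreated arrays 1 and 3 and cobomarsen array 3.

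In untreated MJ, 1 member (IFIT3) of 44 was called higher at day 8 than at day 4 and 0 lower (background 1.19% and 0.491%), and at an unadjusted p under 0.05 in limma 4 were higher and 0 lower, where 6.91% and 4.99% of all genes tested passed. Whether this change over time differed between MJ and HuT102 was not tested. With cobomarsen 5 members were called lower over time and 1 (BST2) higher of 43 (background 2.61% and 2.02%). The treatment effect was lower at day 8 for 4 of 43 members and higher for 0 (background 0.991% and 0.386%). These were IFIT3 (-0.77 ± 0.17), ISG20 (-0.63 ± 0.12), PSMB9 (-0.39 ± 0.10) and SP110 (-0.33 ± 0.09). The count fell to 1 without day 4 cobomarsen array 3, and to 2 without day 4 untreated array 1 or 4, day 4 cobomarsen array 2 or 4, or day 8 array 1, 2 or 3 of either treatment.

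**Figure D4:**
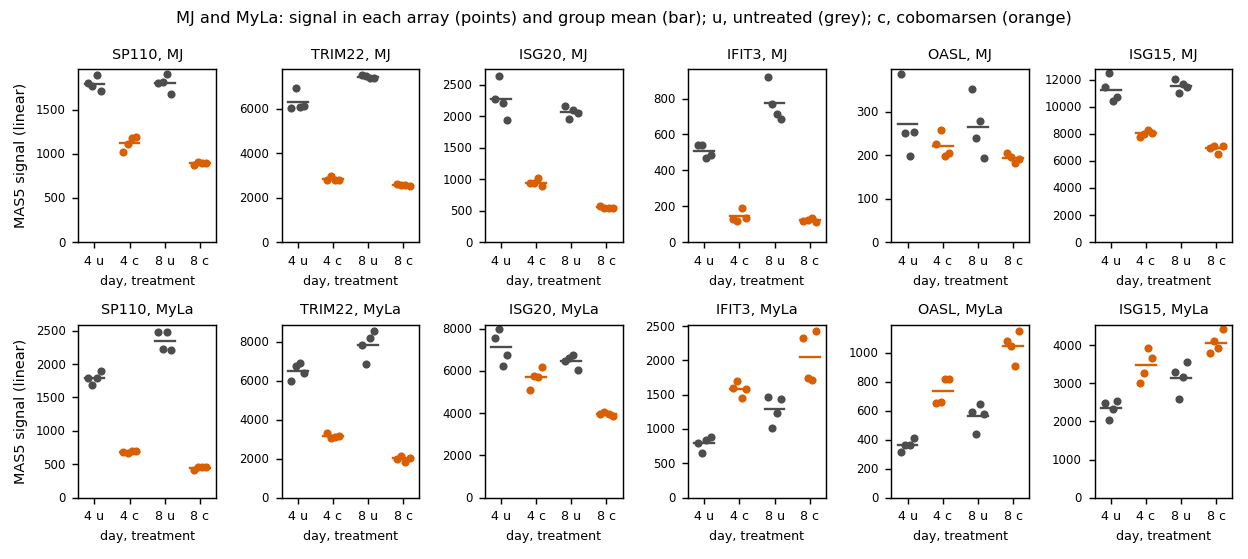
MAS5 signal in MJ (upper row) and MyLa (lower row) for 6 members, 1 point per array and a bar at the mean of 4 arrays, for day 4 and day 8 untreated (u, grey) and with cobomarsen (c, orange); each axis starts at 0. SP110, TRIM22 and ISG20 are lower with cobomarsen in both lines, whereas IFIT3 and ISG15 are lower in MJ and higher in MyLa, and OASL is higher in MyLa.

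In MyLa some members were called lower and others higher. Of all 19775 genes, 11155 reached the background level at day 4 and 10915 at day 8, and of the 48 members 28 did at each. At day 4, 8 were called lower and 5 higher (background 12.9% and 13.4%), and at day 8, 9 lower and 7 higher (background 18.4% and 23.6%). The median log2 change was -0.00 at day 4 and -0.09 at day 8 (0.00 and 0.02 over all genes tested). The share of members called higher was near the background at day 8 and little above it at day 4. The 4 arrays of each treatment did not overlap in 39.3% of members tested at either day, against 25.6% of all genes tested at day 4 and 40.8% at day 8.

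The largest falls were SP110 and TRIM22. SP110 measured 1797, 1681, 1798 and 1896 untreated and 687, 667, 698 and 698 with cobomarsen at day 4 (-1.36 ± 0.06), and 2484, 2223, 2486 and 2209 and 409, 455, 465 and 455 at day 8 (-2.36 ± 0.06, adjusted p = 4.92e-34). TRIM22 went from 7861, 6846, 8189.6 and 8544 to 1992, 2145, 1843 and 2055 at day 8 (-1.96 ± 0.09) and changed by -1.03 ± 0.09 at day 4. BST2 (-0.90 ± 0.08) and ISG20 (-0.70 ± 0.08) fell at day 8 as well. GBP2 went from 147 ± 37.7 to 52.3 ± 26.4, under the background level.

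The largest rises were OASL and IFIT3. OASL measured 313, 360.0, 366 and 409 untreated and 657, 661, 818 and 821 with cobomarsen at day 4 (adjusted p = 6.83e-08), and 588, 440.2, 648 and 575 and 1082, 1049, 911 and 1152 at day 8 (0.89 ± 0.14). IFIT3 went from 1468, 1009, 1239.9 and 1435 to 2324, 1738, 1721 and 2432 at day 8 (0.66 ± 0.12) and changed by 0.99 ± 0.12 at day 4. ISG15 went from 3301, 2597, 3171 and 3556 to 3809, 4129, 3932 and 4425 at day 8 (0.37 ± 0.09). In these 3 genes every treated array of day 8 was above every untreated one.

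SAMD9, a cytoplasmic antiviral factor, was called higher at day 4 (0.51 ± 0.15) and lower at day 8 (-0.50 ± 0.15), and IFIH1 likewise (0.31 ± 0.10 and -0.30 ± 0.10). The effect differed between days in 7 members called lower and 2 (PLSCR1 and IFI44) higher of 28 (background 7.47% and 9.61%), with SP110 at -0.99 ± 0.09 and TRIM22 at -0.93 ± 0.13. Untreated MyLa held 9 members called higher at day 8 than at day 4 and 0 lower of 28 (background 6.61% and 6.46%), and cobomarsen-treated MyLa 9 higher and 5 lower of 27 (background 17.1% and 13.2%). At day 4 the calls of IFI35 (cobomarsen arrays 1 and 4, untreated array 3), IFIH1 (cobomarsen array 1), PSMB9 (cobomarsen array 2) and SAMD9 (untreated array 2) were lost without each array in brackets. At day 8 those of IFIT2 and IRF1 were lost without cobomarsen array 1, 3 or 4 or untreated array 2 or 3, and that of UBE2L6 without cobomarsen array 1, 2 or 4 or untreated array 1 or 3. Those of IFI44 (cobomarsen array 2, untreated array 2), IFIH1 (cobomarsen array 2, untreated array 1) and PSMB9 (cobomarsen array 1, untreated array 3) were lost likewise. The 7 higher calls of day 8 became 4 without untreated array 2 or 3 or cobomarsen array 1 or 4, and 4 when only MyLa arrays were fitted. Each sample name ends in a running number of its own, which falls in separate blocks for the treatments in MyLa and alternates between them in the other lines. What it stands for is not given.

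In HuT78 0 of 44 members were called lower with cobomarsen at day 8 and 5 higher, where 11.3% and 10.6% of all genes tested were. At an unadjusted p under 0.05 in limma, 2 were lower and 6 higher, 4.55% and 13.6% of the members against 18.2% and 15.3% of all genes tested. The share called higher was near the background, and the median log2 change was 0.01 (-0.05 over all genes tested). Without cobomarsen array 1 the lower count became 2, and without untreated array 1 or cobomarsen array 4 it became 1. The 5 called higher were UBE2L6 (0.36 ± 0.07), IFI35 (0.36 ± 0.10), ISG15 (0.33 ± 0.09), PSMB9 (0.29 ± 0.07) and BST2 (0.27 ± 0.08). UBE2L6 measured 5009, 5083, 4879.9 and 5576 untreated and 5513, 6769, 7303 and 6838 with cobomarsen. BST2 measured 1885, 1995, 1981 and 2337 untreated and 2289, 2489.8, 2899 and 2222 with cobomarsen. The groups overlapped for each of the 5 except IFI35. When limma was fitted on the HuT78 arrays alone, 0 members and 1 of all 10959 genes tested were called, so that fit says nothing particular of the members. Without cobomarsen array 3 the calls of BST2 and IFI35 were lost. The upper quartile of the treated arrays was 380.2 to 431 and of the untreated ones 422 to 443, and after quantile normalization the counts were again 0 and 5. TRIM22 and SP110, which led in MyLa, changed by -0.10 ± 0.09 and 0.09 ± 0.06 and were not called.

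The effect at day 8 was compared between the lines within the same model. Over the 4 lines the moderated F-test called 47 of 47 members tested, where 64.8% of all genes tested were called; 27 of the members reached the background level in every comparison of treatment. The effect was lower in HuT102 than in MJ for 26 of 48 members and higher for 6 (background 14% and 14.2%). Against MyLa it was lower for 35 and higher for 4 of 47 (background 21.7% and 17.4%), and against HuT78 lower for 39 and higher for 1 of 47 (background 18.3% and 18.9%). In MJ it was lower than in MyLa for 18 and higher for 4 of 41 (background 19.4% and 14.4%). These contrasts share the arrays of HuT102, MJ or MyLa. A member could enter through 1 line while the other lay under the background level, and such a difference holds no measured effect in the second line. Of members tested in both lines, the effect was lower in HuT102 than in MyLa for 21 and higher for 4 of 28 (23.1% and 17.7% of all genes tested in both). It was lower in HuT102 than in MJ for 25 and higher for 6 of 43 (14.2% and 14.4%), lower in HuT102 than in HuT78 for 37 and higher for 1 of 44 (20% and 19.5%), and lower in MJ than in MyLa for 13 and higher for 4 of 27 (20.7% and 14.7%).

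The exceptions ran by gene. The 6 members whose effect was higher in HuT102 than in MJ were TRIM22 (adjusted p = 2.24e-12), IFIT3 (1.28 ± 0.17), IRF1 (called higher in HuT102 and lower in MJ), GBP2, PSMB9 and TAP1. Against MyLa they were TRIM22 (1.82 ± 0.13), SP110 (1.43 ± 0.09), GBP2 and BST2. The IFIT3 effect differed by -3.18 ± 0.17 between MJ and MyLa (adjusted p = 4.98e-21), as it fell in one and rose in the other. USP18 differed by -2.05 ± 0.30 between HuT102 and MJ.

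Across the lines, 20 of the 43 members tested in both were called lower at day 8 in HuT102 and MJ (46.5%, against 8.91% of all genes tested in both). In HuT102, MJ and MyLa 5 of 27 were called lower at day 8 (18.5% against 2.86%), namely IFIH1, IRF9, SP110, ISG20 and PSMB9. Only SP110 and ISG20 of 27 were called lower in each of the 6 comparisons of these 3 lines (7.41% against 0.966%). The other way, 6 of 28 members were called lower in HuT102 and higher in MyLa at day 8 (21.4% against 6.37%): OASL, IFIT2, IFIT3, ISG15, UBE2L6 and IFI44. Those of IFIT2, UBE2L6 and IFI44 in MyLa were the calls named above as lost without 1 array. At day 8, 43 of the 48 members were called lower in HuT102 (background 21.3%). A joint share with HuT102 therefore mostly restates the calls of the other lines. In MyLa at day 8, 7 of 28 members were called higher (background 23.6%). The joint shares are thus not evidence separate from the counts of each line.

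**Figure D5:**
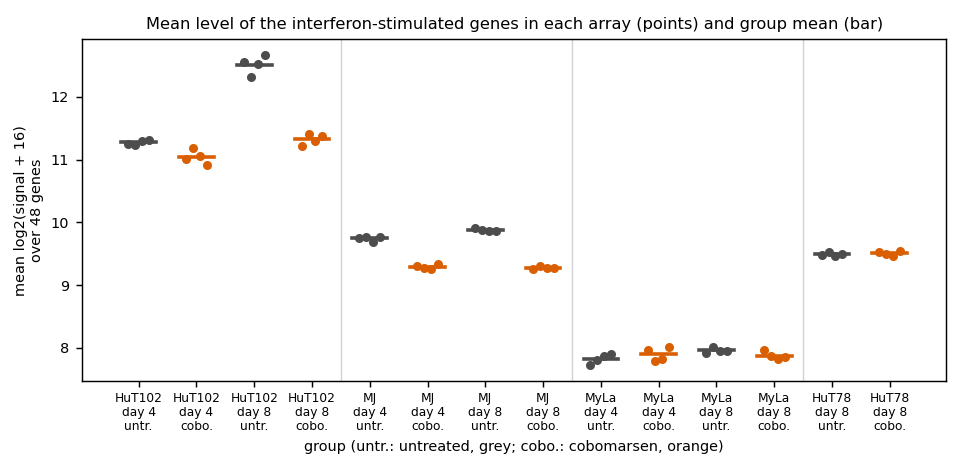
Mean log2(signal + 16) over the 48 members in each array (points) with a bar at the mean of 4 arrays, for the 14 groups of line, day and treatment. Untreated HuT102 of day 8 is highest (12.31 to 12.67), the MJ arrays with cobomarsen lie below the untreated ones at both days, and MyLa (7.72 to 8.01) is lowest.

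The untreated lines differed in level at day 8, and in HuT102 these levels include the rise from day 4 described above. The running numbers of the sample names fall in separate ranges for HuT102 with MJ and for HuT78 with MyLa. A difference between these pairs of lines cannot be told apart from one between the ranges. In untreated cells at day 8, HuT102 had the highest mean signal of the 4 lines in 44 of the 48 members, and in 43 of these its arrays did not overlap those of any other line. Of all 11627 genes tested, 21.7% were highest in HuT102 and 11.1% without overlap. Against the mean of the other lines 46 of 47 members tested were higher in HuT102 and 1 lower (background 30.5% and 37.3%). MX1 measured 22069 ± 2314 in HuT102, 375 ± 38.6 in HuT78, 320.5 ± 88.5 in MJ and 110.2 ± 25.5 in MyLa. OAS1 measured 9976 ± 1200.0, 334 ± 41.4 and 117 ± 20.6 in HuT102, MJ and HuT78, and 28.4 ± 8.5, under the background level, in MyLa. IFI44L reached 10679.7 ± 981 in HuT102 and 109 ± 26.0 in MJ, and lay under the background level in MyLa and HuT78.

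The 1 member called lower in HuT102 was IFITM1, at 5726 ± 719.9 in HuT102 and 34009 ± 1303 in HuT78. LGALS3BP, a secreted glycoprotein, was also highest in HuT78 (5512 ± 90.1), and IRF1 in MJ (3058 ± 138). HERC6 was nominally highest in HuT78, with arrays that overlapped those of other lines.

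MyLa had the lowest mean in 30 members and HuT78 in 15, and the share of all genes lowest in each line was not computed. Against the mean of the other lines, 40 of 47 were lower and 6 higher in MyLa (background 37.5% and 34.6%), 27 lower and 18 higher in HuT78 (background 36.9% and 39%) and 17 lower and 20 higher in MJ (background 25.8% and 34.6%). In untreated MyLa, 20 members had means under the background level at both days, among them EIF2AK2, OAS1, OAS3, IFIT5, XAF1 and USP18. The share of all genes with such means was not computed. MX2 in MyLa (3104 ± 96.8) was nonetheless above MJ (206 ± 23.2) and HuT78 (205 ± 24.1). TRIM22 was at 165 ± 18.2 in HuT78 and at 7451 ± 70.6 or more in the other lines.

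Other genes of the pathway were read from lists of ligands, receptors, kinases, induction machinery, negative regulators and further interferon-stimulated genes, 82 of which had a probe set. Of the ligands, only interferon gamma was tested in HuT102 and MJ. In MJ IFNG went from 4056, 3184, 3413 and 3330.1 to 226, 150.1, 144 and 133 at day 8 (-4.31 ± 0.22) and changed by -2.79 ± 0.22 at day 4. In HuT102 it was not called at day 8 (0.16 ± 0.22), with 5368 ± 641 untreated and 6012 ± 648 with cobomarsen.

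Interferon beta, IFNB1, did not reach the background level by its mean log2 value over the arrays compared and was not tested. It is named here after its values were seen. In untreated HuT102 at day 8 it measured 174, 41.0, 195 and 164, and with cobomarsen 47.8, 24.0, 43.6 and 11.6. At day 4 it measured 10.6, 23.8, 38.6 and 5.34 untreated and 2.99, 17.3, 18.3 and 8.59 with cobomarsen. Array 2 of the untreated day 8 group, the lowest for 40 members, also had the lowest IFNB1 signal, which overlapped the treated arrays. Array 4 of that group, the highest for 42 members, did not have the highest IFNB1 signal (164, against 195 in array 3). Whether IFNB1 followed the members from array to array was not tested. In the other 3 lines no array exceeded 15.0. With no filter on low values the limma adjusted p for HuT102 at day 8 was 2.66e-06. The gene was picked by these same values, so this p-value is not separate evidence.

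Of the 6 receptor chains tested in HuT102 at day 8, 5 were called higher and 0 lower, IFNLR1 having passed the filter on low values through its treated arrays alone. They were IFNGR2 (1.16 ± 0.12), IFNAR2 (0.57 ± 0.08), IFNAR1 (0.51 ± 0.10), IFNGR1 (0.25 ± 0.08) and IFNLR1, which went from 19.6, 20.1, 97.4 and 51.0 to 287, 319.9, 374 and 381. In MJ IFNGR2 fell instead (-0.50 ± 0.12 at day 4 and -1.04 ± 0.12 at day 8). The kinase TYK2 rose in HuT102 at day 8, from 3969.9, 3847, 3921 and 3915 to 8937, 8736, 8877 and 10464 (1.23 ± 0.10). The IFNGR1 call was lost under at least 1 other processing. Over the receptor chains at day 8, 1 of 5 was called lower and 1 higher in MJ, 3 of 5 and 1 in MyLa, and 0 of 6 in either direction in HuT78. STAT3 was called lower in all 6 comparisons of HuT102, MJ and MyLa, with changes of -0.59 ± 0.09, -1.46 ± 0.09 and -0.41 ± 0.09 at day 8. IKBKE, a kinase that activates IRF3 and IRF7 and is a published target of miR-155, was called higher in all 6, with changes of 1.02 ± 0.11, 0.81 ± 0.11 and 0.73 ± 0.11 at day 8. SOCS3, an inhibitor of cytokine signalling, fell in HuT102 at day 8 (-1.85 ± 0.17) and rose in MyLa (0.94 ± 0.17). Over the induction machinery at day 8, 4 genes were called lower and 2 higher of 11 in HuT102, 2 and 4 of 11 in MJ, 1 and 4 of 11 in MyLa and 2 and 0 of 12 in HuT78. Over the negative regulators it was 3 and 2 of 9 in HuT102 and in MJ, 1 and 4 of 8 in MyLa and 0 and 0 of 7 in HuT78. Of all genes tested at day 8, 21.3% were called lower and 19.1% higher in HuT102, and 18.7% and 15.3% in MJ. In MyLa it was 18.4% and 23.6%, and in HuT78 11.3% and 10.6%. Whether the counts of these short lists differ from such shares was not tested.

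Of the further interferon-stimulated genes, 26 of 39 were called lower in HuT102 at day 8 and 2 higher. The lower ones included LY6E (-1.74 ± 0.16), IFITM3 (-1.65 ± 0.17) and RTP4 (-1.23 ± 0.17). GBP5 was called higher (1.23 ± 0.19). In untreated HuT102, 24 of 40 were higher at day 8 than at day 4 and 0 lower, while with cobomarsen 10 were higher and 2 lower of 38. At day 8, 16 of 37 were called lower and 2 higher in MJ, 10 and 4 of 33 in MyLa, and 5 and 6 of 35 in HuT78. The background shares for each of these comparisons are those given above.

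Of the 48 members, 25 had more than 1 probe set, and the others were fitted on their own (an alternative chosen after the data were seen). In HuT102 at day 8, 29 of the 30 tested other probe sets of genes called lower were also called lower, and all 30 changes were below 0. In MJ at day 8 it was 15 of 18, and in MyLa 5 of 8, where 7 of the 8 changes were below 0. At day 4 it was 6 of 16 in HuT102, 10 of 16 in MJ and 5 of 5 in MyLa. Of these day 4 changes, 16 of 16 in HuT102 and 15 of 16 in MJ were below 0. In none of the 7 treatment comparisons was another probe set of a called gene called in the opposite direction. Genes not called on the probe set used were not checked in this way.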

How the data were processed

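Total RNA of 56 samples was measured on Affymetrix arrays. The deposited table holds 1 MAS5 intensity (signal) per probe set and array, on a linear scale as the values show and made with MAS5 per the submitters' processing notes. The scaling target is not given in the sources used here. Of 54675 probe sets, 62 were controls, 41091 had 1 gene symbol in the platform annotation, 1801 several and 11721 none. A gene was read from its single-symbol probe set with the highest mean over all arrays, which gave 19775 genes. STAT2 was not analysed here.

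Values were log2(signal + 16). One limma model (3.58.1, R 4.3.3) held the 14 groups of 4 arrays and left 42 degrees of freedom; the variance prior followed mean intensity. Genes whose mean log2 value in the arrays of a comparison lay under the overall median were left out of it, with Benjamini-Hochberg adjustment over all genes tested. Figures were drawn with Matplotlib 3.10.9 and tables made with pandas 2.3.3, both in Python 3.11.15. On simulated data for MJ at day 8 (19775 genes, 11969 tested) the fit called 66% of 100 genes changed by 0.5 and 91% of 100 changed by 1 on the log2 scale, none with the wrong sign, and 15 unchanged genes.

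The members and lists were chosen with earlier results of these data known. Any member could be named. Array values were given for the largest changes of a role and for members that went against their role, and other pathway genes were named where called, apart from IFNB1. Alternatives were log2(signal + 1) and log2(signal + 64), no filter or one at the 75th percentile, quantile normalization, the mean of a gene's probe sets, only the arrays compared, no variance trend, and each array left out. Precision is limited by the number of arrays.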

Additional observations from a re-analysis of the deposited data

Results flagged for a closer look

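Among 88 groups of 4 arrays checked with Dixon's ratio at its 95% level, 6 held an array far from the other 3, where chance gives about 1 in 20. In HuT102 at day 8 with cobomarsen, OAS1 reached 2923 in array 2. In MJ at day 8 ISG20 was 579 in cobomarsen array 1 and DDX60 was 500.4 in untreated array 3. In MJ at day 4 TRIM22 was 6958 in untreated array 2 and 2989 in cobomarsen array 2, and IRF7 was 1160 in cobomarsen array 3. None of these arrays lay within the range of the opposite treatment.

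By the interaction in limma, the treatment effect differed between the days for 30 of 48 members in HuT102 (7.18% of all genes tested). It differed for 4 of 43 in MJ (1.38%) and 9 of 28 in MyLa (17.1%). At day 8 the effect differed between HuT102 and MJ for 32 of 48 (28.2%) and between HuT102 and MyLa for 39 of 47 (39.1%). It differed between MJ and MyLa for 22 of 41 (33.8%) and between HuT102 and HuT78 for 40 of 47 (37.2%). These counts between lines include members tested in 1 line only, and those for members tested in both are given above. Over the 4 lines together the effect differed for 47 of 47 members tested (64.8% of all genes tested).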

How the results depend on the processing

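Leaving out each array in turn kept the count of members called lower in HuT102 at day 8 between 42 and 44, in HuT102 at day 4 between 11 and 17, in MJ at day 4 between 22 and 23 and at day 8 between 22 and 24, and the 45 of untreated HuT102 between days at 45. It moved other counts over a wider range: 7 to 14 for HuT102 between days with cobomarsen, 0 to 2 for members called higher in HuT102 at day 4, 0 to 2 for members called lower in HuT78, 1 to 4 for the change of the MJ effect between days, 1 to 2 for members called higher in MJ at day 4 and 4 to 7 for members called higher in MyLa at day 8. When only the arrays compared were fitted, members called higher numbered 2 in MJ at day 4, 3 in MJ at day 8, 4 in MyLa at day 8 and 0 in HuT78, and members called lower in MyLa at day 4 numbered 5. The same setting gave 23 calls for HuT102 and 10 for MJ between days with cobomarsen, 2 for untreated MJ between days and 11 for the change of the MJ effect. The share of all genes tested that was called moved too, from 20.4% to 18.9%, 4.63% to 11.3%, 1.68% to 1.96% and 1.38% to 3.67% in these 4 comparisons, and from 22% to 0.00912% in HuT78. With log2(signal + 1) 10 members were called lower in HuT102 at day 4, and with log2(signal + 64) 1 was called higher in MJ at day 8 and 1 lower in HuT78. With no filter 1 was called higher in HuT102 at day 4 and 2 changed their effect between days in MJ, also 2 with no variance trend. The filter at the 75th percentile, which tests fewer genes, left 14 members different between MJ and MyLa. With the mean of a gene's probe sets 3 members were called higher in MyLa at day 4, and 3 changes turned sign. These were OAS2 in MyLa at day 8 (-0.26), SP100 in MyLa at day 4 (0.22) and APOL6 in HuT78 (-0.0497). OAS2 was called lower with this mean (limma adjusted p = 0.0129) and was not called on the probe set used. Unless stated, the cause was not tested.

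Of 143 calls of a member in a treatment comparison, 39 were lost under at least 1 of these alternatives. No paired analysis was possible because the labels give no replicate number that groups share. Each sample name ends in a number of its own, and the array numbers used here only follow the order of deposit. Array signal near the background level limits the values in MyLa, where 20 of the 48 members were not tested. Of all 19775 genes, 10915 were tested there at day 8.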
